A study of Mus musculus with 2 samples.

Results

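The B cells described here were chosen as single-cell barcodes of mouse bone marrow that carried transcripts of Ighd, the constant region of the IgD heavy chain. A barcode was kept when it had at least 500 unique molecular identifiers (UMIs, each standing for 1 captured transcript), at most 20% mitochondrial UMIs, less than 20% hemoglobin UMIs, at least 3 UMIs of Cd79a and Cd79b together, fewer than 2 of Vpreb1 and Igll1 together, at least 2 of Ighd, fewer than 20 of Jchain, and less than 5% of its UMIs from the granule genes S100a8, S100a9, Camp, Ngp and Ltf. This rule found 1458 of 33691 barcodes, 781 of them from the control mouse and 677 from the DKO mouse. They are called Ighd+ B cells below, and the genes that selected them are described but are not findings.

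Femoral marrow of 1 control mouse and of 1 DKO mouse, both 2 months old, was sequenced with the droplet-based Chromium 3' chemistry, 1 library each. The control, labelled WT, was a Ddx41 fl/fl littermate that lacked VavCre and had wild-type cGas, and the DKO mouse was VavCre:Ddx41 fl/fl, cGAS-/-, so that the floxed Ddx41 alleles were present in both. VavCre acts throughout the hematopoietic system and is also known from oocytes and endothelium, whereas the cGAS deletion is in all cells of the animal. Since each genotype was 1 mouse, variation from animal to animal is unknown and no test between genotypes was made. The intervals given are exact 95% intervals of the counting error alone. Levels are given as CPM, the share of a gene among the summed UMIs of the barcodes, scaled to 1e6.

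A B cell that has rearranged its heavy and light chain genes first carries IgM, and IgD is added by alternative splicing of the same long transcript as the cell matures. Mature B cells leave the marrow, circulate through the follicles of spleen and lymph nodes, and return to the marrow with the blood. They present antigen on MHC class II and depend on the survival factor BAFF, while pre-B and immature B cells still hold the recombinase genes Rag1 and Rag2.

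The depth of these cells differed between the libraries. The control cells summed to 2934379 UMIs with a median of 2801 per cell (535 to 58566), and the DKO cells to 3298335 UMIs with a median of 3784 (589 to 149278). No doublet caller was run. Barcodes above 10000 UMIs, 26 control and 32 DKO ones, held 21.9% and 23.3% of the UMIs. The largest DKO barcode alone held 5089 of the 5192 UMIs of the platelet list in the DKO cells, 4137 of them from Pf4, beside 7 Ighd UMIs. Markers of other cells differed between the libraries as well. The 9 monocyte and macrophage genes summed to 1296 CPM in control and 289 CPM in DKO cells, with none at 0 in either library. The 10 neutrophil genes summed to 3117 and 1717 CPM, the 10 erythroid genes to 10679 and 11937 CPM, and the 9 T cell genes to 45.3 and 9.40 CPM with 1 of them at 0 in the DKO library. In cells of at most 10000 UMIs the platelet list summed to 158 and 32.8 CPM, the monocyte list to 473 and 122 CPM, the neutrophil list to 1485 and 1353 CPM, and the erythroid list to 6976 and 4188 CPM, so that the erythroid sum was higher in DKO cells over all cells and lower at this limit. The part of these RNAs in the results was not tested. Levels and ratios below are for all Ighd+ B cells unless another set is named. Some lists and genes are also given for cells of at most 10000 UMIs, a limit set after the data were seen. No barcode sequence was shared by Ighd+ B cells of both libraries, while 1 control cell's barcode recurred among the DKO barcodes and 5 DKO cells' barcodes among the control ones.

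Ighd+ B cells were 3.95% (exact interval 3.68% to 4.23%) of the 19764 control barcodes and 4.86% (4.51% to 5.23%) of the 13927 DKO barcodes with enough UMIs and little mitochondrial RNA. The control file listed all barcodes and the DKO file only called cells, so these denominators were not made alike. Among B cells with fewer than 2 Vpreb1 and Igll1 UMIs, the Ighd+ cells were 38.02% (35.9% to 40.2%) for the control and 49.2% (46.6% to 51.9%) for the DKO mouse. A limit of 2 Ighd UMIs is passed more easily at greater depth. When every barcode was first thinned to 2000 UMIs, with 3883 control and 1664 DKO barcodes left out as too shallow, the same share was 31.7% (29.3% to 34.2%) and 33.9% (31.2% to 36.7%), so that the intervals overlapped. As a share of all barcodes it was then 2.80% and 3.24%.

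The markers of mature B cells were present in both libraries. Ms4a1, which encodes CD20 and was not used by the rule, had a median of 2 UMIs per control cell (0 to 19) and 3 per DKO cell (0 to 22). Among B cells of at most 10000 UMIs, Ms4a1 was at 774 CPM (control) and 694 CPM (DKO) with exactly 2 Ighd UMIs. With exactly 1 the levels were 764 and 776 CPM, and with 0 they were 576 and 689 CPM. Ms4a1 thus did not separate cells just inside the limit of 2 Ighd UMIs from those just outside it. H2-Aa, an MHC class II alpha chain gene, had a median of 12 UMIs per cell in each library, with 0 to 40 in the control and 0 to 35 in the DKO cells. Ighd itself ranged from 2 to 15 UMIs per cell in both, with medians of 3 and 4. Neutrophil barcodes, which should lack these genes, had 20.2 and 5.46 CPM of H2-Aa against 3160.5 and 2534 CPM in the Ighd+ B cells.

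**Figure D1:**
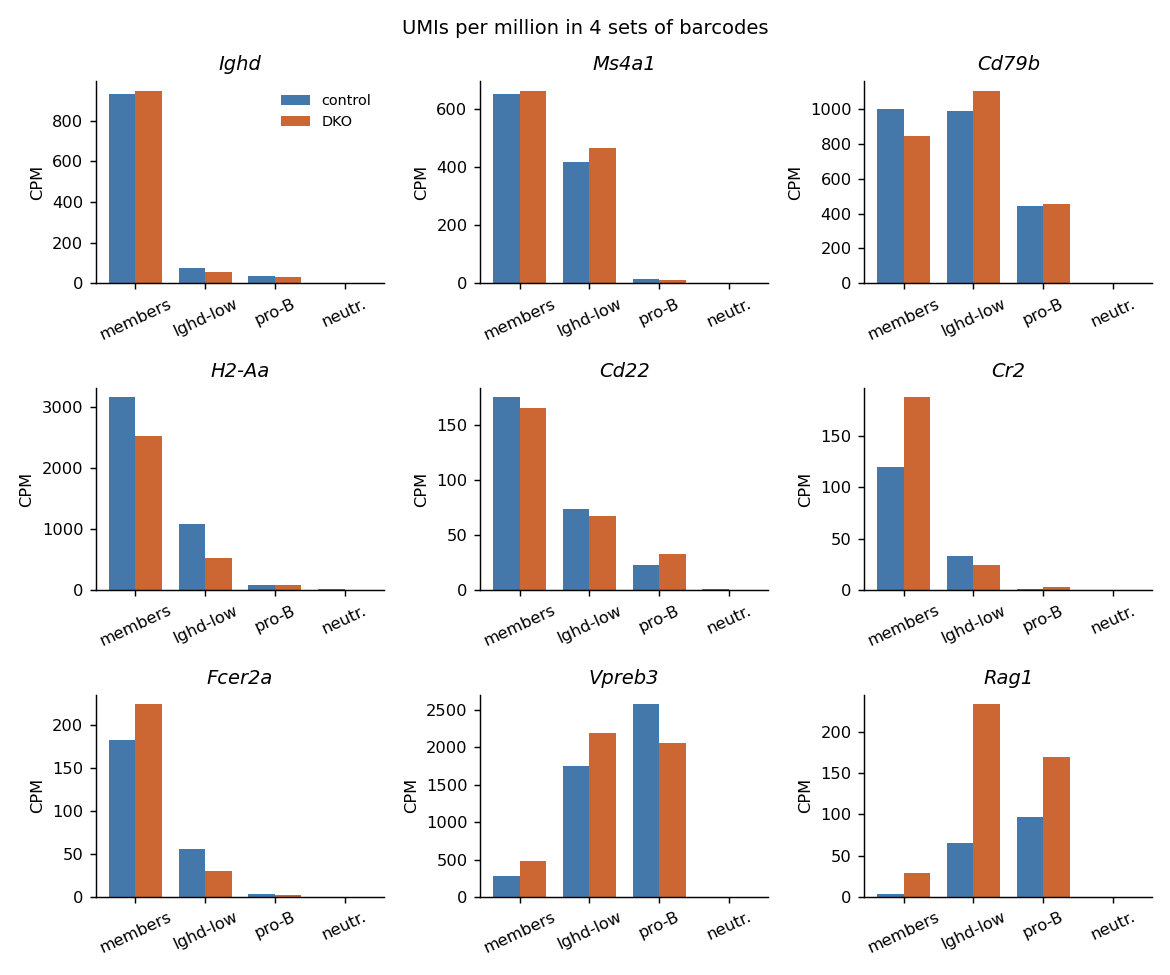
Level in CPM (vertical axis, from 0) of 9 genes in Ighd+ B cells (members), B cells with fewer than 2 Ighd UMIs (Ighd-low), pro-B and large pre-B cells (pro-B) and neutrophils (neutr.) of the control (blue) and DKO (orange) library, each bar the sum of 1 set of barcodes. H2-Aa, Cr2 and Fcer2a were highest in the members of both libraries, and Rag1 was at 4.09 and 28.5 CPM in the control and DKO members.

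Set against B cells with fewer than 2 Ighd UMIs (Ighd-low B cells, 1273 control and 698 DKO barcodes), the Ighd+ B cells showed the profile of their stage in both libraries. Since the rule made this contrast, it is given as a description. Of 7503 genes with at least 20 CPM in a set, 3.03% were at least 2-fold higher and 3.79% at least 2-fold lower in the Ighd+ cells of both libraries. The class II list had 10 of 11 genes at least 2-fold higher in both, and its median log2 difference was 1.41 (control) and 2.0 (DKO). Of the 8 follicular genes, 5 were at least 2-fold higher in both. Fcer2a, the low-affinity IgE receptor CD23 of follicular cells, differed by 1.71 (control) and 2.86 (DKO) on the log2 scale. Cr2, complement receptor CD21, differed by 1.83 and 2.90. Ranked by the smaller of the differences in the libraries, the leading genes after Ighd were Gm47782 (2.44 and 3.81), Rapgef4 (2.03 and 2.56), Setbp1 (2.01 and 2.80), Trim7, Cr2, Rasgrp3, Ciita, P2ry10 and March1. Ciita, the transactivator of class II genes, differed by 1.77 and 2.24.

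Genes of earlier stages were among those lower in the Ighd+ B cells. Of 10 immature B and pre-B genes, 7 were at least 2-fold lower in both libraries, and 10 of 20 cell cycle genes were. Rag1 had the largest difference, -3.89 (control) and -3.02 (DKO) on the log2 scale. Vpreb3, a gene of pre-B and immature B cells that the rule did not use, differed by -2.65 and -2.18, and Cd93, a marker of immature B cells, by -2.15 and -2.25. Reln, Atp1b1, Fam129c, Coq7, Tifa, Cplx2 and Myl4 complete the 10 lowest.

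Levels of stage markers by Ighd UMIs are given for B cells of at most 10000 UMIs. On both sides of the limit of 2 Ighd UMIs these levels differed between the libraries. Cells with 0 Ighd UMIs had 1110 CPM (control) and 569 CPM (DKO) of H2-Aa, and 126 and 378 CPM of Rag1. Whether stage, depth or genotype underlies these differences was not tested. Control cells with exactly 2 Ighd UMIs, just inside the limit, had 4005 CPM of H2-Aa and 436 CPM of Vpreb3, and those with exactly 1, just outside it, had 2794 and 1347 CPM. DKO cells with exactly 2 had 2393 CPM of H2-Aa and 1158 CPM of Vpreb3, and those with exactly 1 had 1315 and 2161 CPM. Rag1 was at 10.2 CPM (4.39 to 20.02) in control and 115 CPM (87.6 to 148) in DKO cells with 2 Ighd UMIs. At 5 to 9 Ighd UMIs H2-Aa was at 3807 CPM (3639 to 3980) and 3498 CPM (3384 to 3616), and Vpreb3 at 290.1 CPM (245 to 341) and 225 CPM (197 to 257), the Vpreb3 intervals overlapping. By these markers the label of mature cells held less well for DKO cells near the limit. Over all Ighd+ B cells, those with at least 2 UMIs of Cd93, Rag1 or Rag2 together were 1.92% (1.08% to 3.15%) of the control and 6.35% (4.63% to 8.46%) of the DKO cells. The shares were 0.523% and 1.15% in neutrophils, which had a median of 4517 and 4635 UMIs. After thinning each cell to 1500 UMIs, with 23 control and 7 DKO cells left out, the shares were 0.132% and 2.09%, against 0.131% and 0.102% of thinned neutrophils.

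**Figure D2:**
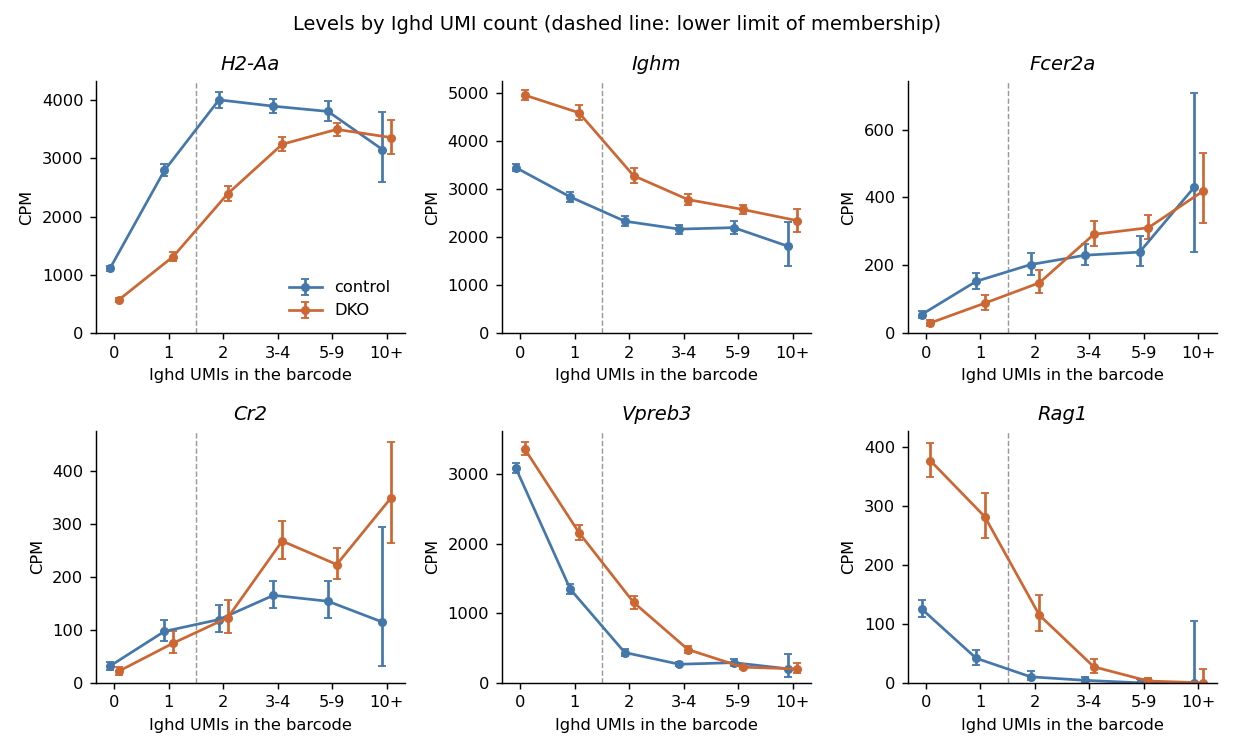
Level in CPM (vertical axis) of 6 genes in B cells of at most 10000 UMIs, grouped by their Ighd UMIs (horizontal axis). The control library is blue and the DKO library orange, with Poisson 95% intervals as bars and the membership limit as a dashed line. Rag1 and Vpreb3 were lower and H2-Aa higher at 2 than at 0 Ighd UMIs in both libraries, and at 2 Ighd UMIs the DKO cells were at 115 CPM of Rag1 against 10.2 CPM in the control cells.

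Ddx41, the floxed helicase gene (GRCm38 chr13:55530410-55536658), was at 36.1 CPM (29.6 to 43.7) in control and 19.1 CPM (14.7 to 24.4) in DKO cells, a log2 ratio of -0.91 (-1.39 to -0.46). Cgas, the cytosolic DNA sensor gene (chr9:78430526-78443237), was at 9.88 CPM (6.62 to 14.2) and 3.03 CPM (1.45 to 5.58), a log2 ratio of -1.62 (-2.91 to -0.63). In cells of at most 10000 UMIs the Cgas levels were 3.49 and 1.98 CPM, with a log2 ratio of -0.73 (-2.78 to 0.97). The deleted exons are not given in the sources used here, and UMIs from the 3' end may lie outside them, so these counts may check nothing about the deletion. Of the cytosolic DNA sensing list, 8 genes passed 20 CPM and only Ddx41 had an interval off 0. Tmem173, which encodes STING, was at 22.5 CPM (17.4 to 28.6) and 30.02 CPM (24.4 to 36.5).

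Across the 6943 genes with at least 20 CPM in either library, 98 (1.41%) were at least 2-fold lower and 173 (2.49%) at least 2-fold higher in the DKO cells. After centring on the median of all genes, which was 0.13 on the log2 scale, the counts were 134 and 142. The counting interval lay below 0 for 17.5% and above 0 for 30.6% of the genes. In cells of at most 10000 UMIs, 1.23% of 6582 genes were at least 2-fold lower and 1.17% at least 2-fold higher, with the interval below 0 for 12.4% and above 0 for 26.6% of them. Of the 173 higher genes 56 (32.4%) were again 2-fold higher there, which was 72.7% of that set's 77, and of the 98 lower genes 44 (44.9%) were again 2-fold lower, which was 54.3% of its 81. The 5 highest ratios over all cells were those of Timp3, Trpc6, Pf4, Rab27b and Itga2b, and the single large DKO barcode held 342 Timp3, 334 Trpc6 and 4137 Pf4 UMIs. Timp3 was at 2.04 and 106 CPM over all cells but at 2.62 and 1.19 CPM in cells of at most 10000 UMIs. The lowest ratios included the monocyte genes Lyz2, Ly6c2 and F13a1, the granule protease genes Elane and Ctsg and the erythroid gene Car1, although the erythroid list as a whole had 4 of 9 intervals above 0, 2 below it and a median of 0.14. Lyz2 was at -2.24 over all cells and at -0.39 without cells with at least 2 UMIs of other-cell markers.

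The genes of MHC class II presentation were lower in the DKO cells. Of the 11 genes, 8 had an interval below 0, 1 had an interval above 0, and none reached 2-fold, with a median log2 ratio of -0.27 in all cells and -0.25 in those of at most 10000 UMIs. The median of all genes was 0.13, with 17.5% of intervals below 0 and 30.6% above it. Cd74, the invariant chain that escorts class II molecules, was at 6769 and 5618 CPM in control and DKO cells (log2 ratio -0.27, -0.30 to -0.24). H2-Eb1, a class II beta chain gene, was at 2239.7 CPM (2186 to 2294) and 1658 CPM (1614 to 1703), a log2 ratio of -0.43 (-0.49 to -0.38). H2-Oa, a chain of the DO modulator of peptide loading, had the lowest ratio, -0.44 (-0.64 to -0.24), and H2-Ab1 was at -0.27 (-0.33 to -0.22). Ciita was at 172 CPM (157 to 187) and 158 CPM (144 to 172), with a ratio interval that included 0. H2-Eb2 was the exception, at 55.5 CPM (47.3 to 64.8) and 71.6 CPM (62.7 to 81.3), a log2 ratio of 0.36 (0.07 to 0.66). In Ighd-low B cells of at most 10000 UMIs the list's median was -0.87, with 11 of 11 intervals below 0, against 15.4% of 6777 genes and a median of 0.08 over all of them. In all Ighd-low B cells the class II median was -0.78, with 10 of 10 intervals below 0, against 1490 of 6999 over all genes. In pro-B and large pre-B cells 6 class II genes passed 20 CPM, with a median of -0.16. None of those 6 had an interval off 0, while 1105 of 6799 intervals over all genes lay below 0. In Ighd+ B cells with at least 5 Ighd UMIs the list's median was -0.10.

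Promoters of class II genes share a set of elements that includes the Y box, a CCAAT element read in reverse. RefSeq promoter windows of GRCm38.p6 were at hand for 8 of the 11 class II genes, as 9 windows. The 8-base motif CTGATTGG was searched on both strands of the 250 bases before each start. It was in 4 of the 9 windows and in 3.83% of all 32851 windows, while its shorter core ATTGG, which it contains, was in 8 of the 9 and in 33.8% of all. The 4 windows with the longer motif are shown so that the element can be seen in genes of both directions, H2-Aa, H2-Eb1 and H2-Oa, which were lower in DKO cells, and H2-Eb2, which was higher. Capitals mark the motif, and each sequence is written on the strand of its gene.
H2-Aa, minus strand, chr17:34287824-34288073: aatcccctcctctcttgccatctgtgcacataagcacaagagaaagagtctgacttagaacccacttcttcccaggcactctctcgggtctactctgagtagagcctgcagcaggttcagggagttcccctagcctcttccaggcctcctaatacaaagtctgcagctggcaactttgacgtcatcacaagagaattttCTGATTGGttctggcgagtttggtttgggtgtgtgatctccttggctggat
H2-Eb1, plus strand, chr17:34305617-34305866: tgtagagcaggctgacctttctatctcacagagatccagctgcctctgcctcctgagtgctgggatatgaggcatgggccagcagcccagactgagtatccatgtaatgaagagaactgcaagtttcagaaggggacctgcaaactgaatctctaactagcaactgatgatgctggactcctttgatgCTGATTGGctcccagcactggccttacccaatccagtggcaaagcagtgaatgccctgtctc
H2-Eb2, plus strand, chr17:34325425-34325674: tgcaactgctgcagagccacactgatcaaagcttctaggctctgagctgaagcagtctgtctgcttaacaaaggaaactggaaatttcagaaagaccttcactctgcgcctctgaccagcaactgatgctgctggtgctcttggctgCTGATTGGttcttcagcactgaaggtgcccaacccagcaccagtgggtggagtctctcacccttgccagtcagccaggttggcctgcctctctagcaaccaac
H2-Oa, plus strand, chr17:34092129-34092378: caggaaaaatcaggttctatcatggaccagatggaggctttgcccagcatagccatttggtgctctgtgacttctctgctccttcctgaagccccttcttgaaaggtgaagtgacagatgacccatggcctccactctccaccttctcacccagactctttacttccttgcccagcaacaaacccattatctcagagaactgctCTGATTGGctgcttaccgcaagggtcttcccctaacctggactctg
The motif began 51 bases before the start of H2-Aa, 62 before that of H2-Eb1, 103 before that of H2-Eb2 and 46 before that of H2-Oa. The match describes the letters only. H2-Ab1, Cd74 and Ciita have no printed window.

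MHC class I presentation genes were lower too, with 8 of 11 intervals below 0 and none above it, and a median log2 ratio of -0.25 (-0.30 in cells of at most 10000 UMIs). Over all genes the interval lay below 0 for 17.5% and above it for 30.6%. In Ighd-low B cells the class I median was -0.26, with 6 of 11 intervals below 0, against 1490 of 6999 over all genes. In pro-B and large pre-B cells the class I median was -0.27. H2-Q7, a class Ib gene, was at 196 and 128 CPM (log2 ratio -0.62, -0.80 to -0.43). Psmb9, a subunit of the immunoproteasome, was at 174 and 116 CPM (-0.59, -0.78 to -0.39). B2m, the light chain of all class I molecules, was at 919 and 859 CPM (-0.10, -0.17 to -0.02).

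Interferon-stimulated genes were mostly lower in the DKO cells. Of 24 genes above 20 CPM, 16 had an interval below 0 (17.5% of all genes), 2 had one above it (30.6% of all genes) and 5 were at least 2-fold lower (1.41% of all genes). The median was -0.40. In cells of at most 10000 UMIs, 9 of 23 had an interval below 0 (12.4% of all genes) and 4 were at least 2-fold lower (1.23% of all genes), with a median of -0.36. The median was -0.18 with cells thinned to 1500 UMIs, -0.15 at a floor of 50 CPM and -0.20 with at least 5 Ighd UMIs. Ifi27l2a, an interferon-induced gene on chr12:103442167-103443680, was at 391 CPM (369 to 415) and 152 CPM (139 to 166), a log2 ratio of -1.36 (-1.52 to -1.21). Thinned to 1500 UMIs per cell, 34.96% of control and 17.2% of DKO cells had a UMI of it. Ifi27l2a was also at 160.4 CPM in control and 40.4 CPM in DKO neutrophils. Ly6a, which encodes Sca-1 and rises with interferon, was at 226 CPM (209 to 243) and 116 CPM (104 to 128), a log2 ratio of -0.96 (-1.15 to -0.78), and at 4.56 and 1.33 CPM in neutrophils. Isg15, a ubiquitin-like modifier, was at 31.01 CPM (24.97 to 38.1) and 8.19 CPM (5.39 to 11.9), a log2 ratio of -1.88. The Isg15 ratio was -1.35 in cells of at most 10000 UMIs and -0.04 with cells thinned to 1500 UMIs. Bst2, a tetherin that holds budding virus, was at 98.1 CPM (87.1 to 110.2) and 60.03 CPM (51.96 to 69.00), a log2 ratio of -0.71. The Bst2 ratio was -1.08 in cells of at most 10000 UMIs and -1.99 with at least 5 Ighd UMIs. Ifi209 went the other way, at 136 CPM (123 to 149.6) and 215 CPM (199 to 231), a log2 ratio of 0.66 (0.49 to 0.85), as did Sp100 (0.20, 0.09 to 0.32). In Ighd-low B cells of at most 10000 UMIs the list's median was -0.57. In all Ighd-low B cells it was -0.32, with 13 of 21 intervals below 0 and 2 above it. In pro-B and large pre-B cells it was -0.21, with 8 of 18 intervals below 0 and 1 above it. Over all genes of these 2 sets, 1490 of 6999 and 1105 of 6799 intervals lay below 0.

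**Figure D3:**
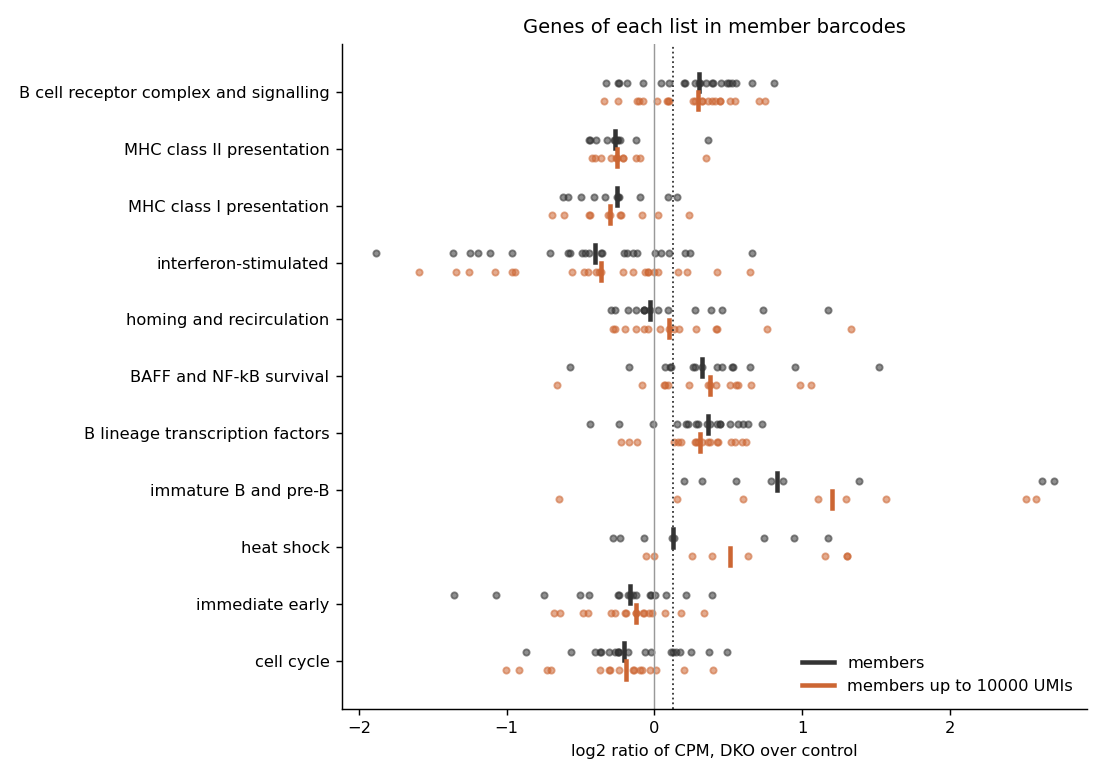
Log2 ratio of CPM, DKO over control (horizontal axis), of the genes of 11 lists with at least 20 CPM, for all Ighd+ B cells (black) and those of at most 10000 UMIs (orange). Each point is a gene, thick ticks are list medians, the grey line is 0 and the dotted line is the median of all genes, 0.13. Class I, class II and interferon-stimulated genes lay mostly below 0 and B lineage transcription factors mostly above it.

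Genes of the B cell receptor and its signalling cascade were mostly higher in the DKO cells. Of 22 genes, 14 had an interval above 0 and 4 below it, none reached 2-fold, and the median was 0.30 in both sets of cells, against 0.13 over all genes. Of all genes, 30.6% had an interval above 0 and 17.5% below it. In Ighd-low B cells the list's median was 0.14 and in pro-B and large pre-B cells 0.08. Syk, the kinase that first binds the phosphorylated receptor, had the highest ratio, at 559.6 CPM (533 to 587) and 979 CPM (946 to 1013), a log2 ratio of 0.81 (0.72 to 0.89). Blnk, the adaptor that Syk phosphorylates, was at 328 and 472 CPM (0.52, 0.41 to 0.64). Malt1, a paracaspase that links the receptor to NF-kB, was at 232 and 367 CPM (0.66, 0.52 to 0.80). Cd79a and Cd79b, the signalling chains that selected the cells, were lower, with log2 ratios of -0.32 (-0.38 to -0.27) and -0.24 (-0.32 to -0.17). Cd22, an inhibitory coreceptor, was at 175 CPM (160.3 to 191) and 166 CPM (152 to 180.3).

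B lineage transcription factors were higher as well, with 15 of 18 intervals above 0, 2 below it, and a median of 0.36. Intervals above 0 made up 30.6% of those of all genes, and intervals below it 17.5%. In Ighd-low B cells the median of these factors was 0.35, with 13 of 18 intervals above 0, against 2065 of 6999 over all genes. In pro-B and large pre-B cells their median was 0.25, with 13 of 17 intervals above 0, against 1464 of 6799 over all genes. Bach2, a repressor that holds B cells from plasma cell fate, was at 1603 and 2432 CPM (0.60, 0.55 to 0.65). Ebf1, which specifies the B lineage, was at 2714 and 3689.7 CPM (0.44, 0.40 to 0.48). Pax5, which maintains B cell identity, was at 643 and 877 CPM (0.45, 0.36 to 0.53). The BAFF and NF-kB survival list had 9 of 15 intervals above 0, 1 below it and 1 gene past 2-fold higher, with a median of 0.32. That list's median was 0.33 in Ighd-low B cells and 0.12 in pro-B and large pre-B cells. Traf3, a brake on the noncanonical pathway, was at 169.7 and 266 CPM (0.65, 0.49 to 0.81). Bcl2l1, which encodes the survival factor Bcl-xL, was at 17.7 CPM (13.2 to 23.2) and 51.5 CPM (44.1 to 59.9) over all cells, and at 18.8 and 37.6 CPM in those of at most 10000 UMIs.

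The 15 homing and recirculation genes did not move together, with 4 intervals above 0, 1 below it and a median of -0.03 (0.10 in cells of at most 10000 UMIs). Over all genes 30.6% of intervals lay above 0 and 17.5% below it. Cxcr4, the receptor for the marrow chemokine CXCL12, was the only list gene past 2-fold, at 125 CPM (113 to 139) and 283 CPM (265 to 302), a log2 ratio of 1.17 (1.0 to 1.35). In Ighd-low B cells Cxcr4 was at 155 and 344 CPM, a log2 ratio of 1.15 (1.02 to 1.28). Ccr7, which draws B cells to T cell zones, was at 66.5 CPM (57.5 to 76.5) and 111 CPM (99.9 to 123), and Cxcr5, which draws them into follicles, at 98.8 CPM (87.8 to 111) and 136 CPM (123 to 149). Klf2, a factor of the quiescent recirculating state, was lower at 739 and 602 CPM (-0.30, -0.38 to -0.21). S1pr1, the egress receptor, was at 123 CPM (111 to 137) and 118 CPM (106 to 129.9), with a ratio interval across 0.

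The 8 follicular genes had 3 intervals above 0 and 2 below it, with a median of 0.05. For all genes the shares were 30.6% above 0 and 17.5% below it, and 26.6% and 12.4% in cells of at most 10000 UMIs. Fcer2a was at 183 CPM (168 to 199) and 224 CPM (208 to 240.5), a log2 ratio of 0.29 (0.13 to 0.46), and Cr2, of the marginal zone list, at 119 CPM (107 to 132) and 187 CPM (173 to 202), a log2 ratio of 0.65 (0.46 to 0.84). Cells with at least 2 UMIs of Fcer2a or Cr2 together were 28.04% (24.9% to 31.3%) of control and 48.3% (44.5% to 52.1%) of DKO cells, and 11.5% and 15.8% after thinning to 1500 UMIs. Of the neutrophils, 0 of 3253 and 0 of 3038 had 2 UMIs, and the exact intervals reach 0.113% and 0.121%. Of the marginal zone list, 6 genes passed 20 CPM, 4 with an interval above 0 and 1 below it. Cd9 of that list was at 36.1 and 107 CPM over all cells but at 33.2 and 16.6 CPM in cells of at most 10000 UMIs. The B-1 list passed 20 CPM with Spn, Itgam and Apoe alone, which myeloid cells also express, and Cd5 was at 1.36 and 1.21 CPM. Of the memory, germinal centre and age-associated list only Pdcd1lg2 and Bcl6 passed it. Immature B and pre-B genes had 7 of 8 intervals above 0, with a median of 0.83. Of these 8 genes 3 were at least 2-fold higher, beside 2.49% of all genes. In cells of at most 10000 UMIs 6 intervals were above 0 and 1 below it, with a median of 1.20. The list was also higher in Ighd-low B cells, with 9 of 10 intervals above 0 (2065 of 6999 over all genes) and a median of 0.73. In pro-B and large pre-B cells 10 of 12 were above 0 (1464 of 6799 over all genes) and 1 below it, with a median of 0.36. Sox4, a factor of early B cells, was at 34.1 CPM (27.7 to 41.4) and 89.7 CPM (79.8 to 101), and Il7r, the receptor of the pre-B growth factor IL-7, at 14.7 CPM (10.6 to 19.7) and 91.9 CPM (81.8 to 103).

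The constant region genes showed the light chain makeup of the cells. Ighm was at 1861 CPM (1812 to 1911) in control and 2318 CPM (2266 to 2371) in DKO cells, a log2 ratio of 0.32 (0.27 to 0.37), and was absent from 10 control cells and 1 DKO cell. Across cells thinned to 1500 UMIs, Ighm and Ighd counts of a cell had a Spearman correlation of 0.07 in 758 control and -0.03 in 670 DKO cells, given as a description of sparse counts. Igkc, the kappa chain, was at 4974 and 4248 CPM (-0.23, -0.26 to -0.19). The lambda gene Iglc1 (chr16:19061618-19062071) was at 658 CPM (629 to 688) and 244 CPM (228 to 262), a log2 ratio of -1.43 (-1.55 to -1.31). In cells of at most 10000 UMIs the Iglc1 ratio was -1.05 (-1.18 to -0.92), with at least 1 Ighd UMI it was -0.78 and with at least 5 it was -0.82, and in Ighd-low B cells the levels were 617 and 722 CPM. Iglc2 was at 1154 and 698 CPM (-0.73, -0.80 to -0.65). The near-identical Iglc2 and Iglc3 sequences may share reads, so their split is uncertain.

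Most cells were dominated by kappa. Among cells with at least 10 light chain UMIs, Igkc was more than 50% of them in 628 of 734 control cells (85.6%, 82.8% to 88.0%) and in 585 of 629 DKO cells (93.0%, 90.7% to 94.9%). In Ighd-low B cells the shares were 77.5% (74.6% to 80.2%) and 73.9% (69.9% to 77.7%). Igkc made up 20% to 80% of the light chain UMIs in 56.9% of control and 45.9% of DKO Ighd+ B cells. The middle range is a range of UMI shares and not a class of cells with both chains. In the 46 control and 20 DKO cells below 20%, Igkc gave 2.89% and 3.12% of the light chain UMIs, and Iglc1 gave 66.8% and 48.3%. Among cells of at most 10000 UMIs, 44 control and 18 DKO cells lay below 20%, and Iglc1 gave 56.3% and 48.1% of their light chain UMIs. Barcodes of at most 100 UMIs in the control file, which hold free RNA, had 2076 CPM of Igkc, 255 CPM of Iglc1, 245 CPM of Ighm and 22.6 CPM of Ighd. No such barcodes were listed for the DKO library. The switched constant genes were scarce: 3.07% of control and 1.48% of DKO Ighd+ B cells had at least 2 UMIs of them, beside 1.57% and 1.71% of neutrophils.

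**Figure D4:**
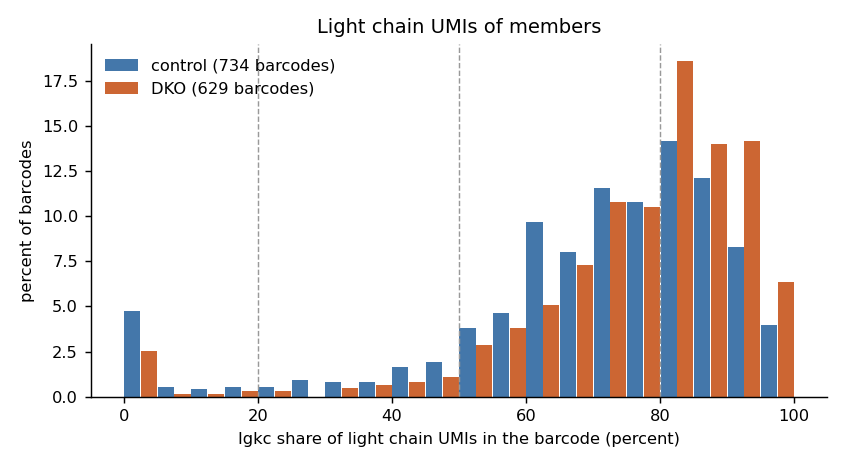
Share of Ighd+ B cells (vertical axis, percent of cells with at least 10 light chain UMIs, 734 control in blue and 629 DKO in orange) by the Igkc share of their light chain UMIs (horizontal axis, percent, in 5% steps), with dashed lines at 20%, 50% and 80%. Most cells lay above 50%, and a separate small group with little Igkc lay below 20% in both libraries.

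The genes with the lowest ratios among those of at least 100 CPM in cells of at most 10000 UMIs included Lyz2, Fcer1g, Gm10076, Ifi27l2a, Id3, Iglc1, Cirbp, Apoe and Ly6a. Gm10076, annotated as a lincRNA (chr14:105681828-105682211), was at 521 and 163 CPM (-1.67, -1.82 to -1.53) over all Ighd+ B cells. In Ighd-low B cells the Gm10076 ratio was -1.55 (-1.67 to -1.43). Id3, an inhibitor of E proteins, was at 170.1 CPM (155 to 186) and 80.6 CPM (71.2 to 90.9) over all Ighd+ B cells. Its log2 ratio was -1.07 (-1.30 to -0.86), and -1.18 in cells of at most 10000 UMIs.

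The 10 highest in the same cells were Gm47782, Pde3b, Stat4, Cxcr4, Hspa8, Zfp53, Washc4, Ppm1e, Tgfbr1 and Dnaja1. There the Stat4 ratio was 1.48, and the values that follow are over all Ighd+ B cells unless another set is named. Stat4, a transducer of interleukin-12 signals (chr1:51987148-52107189), was at 121 CPM (108 to 134) in control and 344 CPM (324 to 364) in DKO cells, a log2 ratio of 1.51 (1.34 to 1.69). In Ighd-low B cells Stat4 was at 44.3 and 50.01 CPM, a log2 ratio of 0.18 (-0.11 to 0.46). Gm47782, annotated as a lincRNA (chr14:15697956-15911315), was at 65.8 CPM (56.8 to 75.7) and 264 CPM (247 to 283), a log2 ratio of 2.0 (1.78 to 2.24), against 11.99 and 18.6 CPM in Ighd-low B cells. Pde3b, a phosphodiesterase of cyclic AMP, was at 85.9 CPM (75.6 to 97.2) and 289 CPM (271 to 308), and in Ighd-low B cells at 58.6 and 131 CPM. Thinned to 1500 UMIs, 18.9% of control and 36.3% of DKO Ighd+ B cells had a Stat4 UMI.

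**Figure D5:**
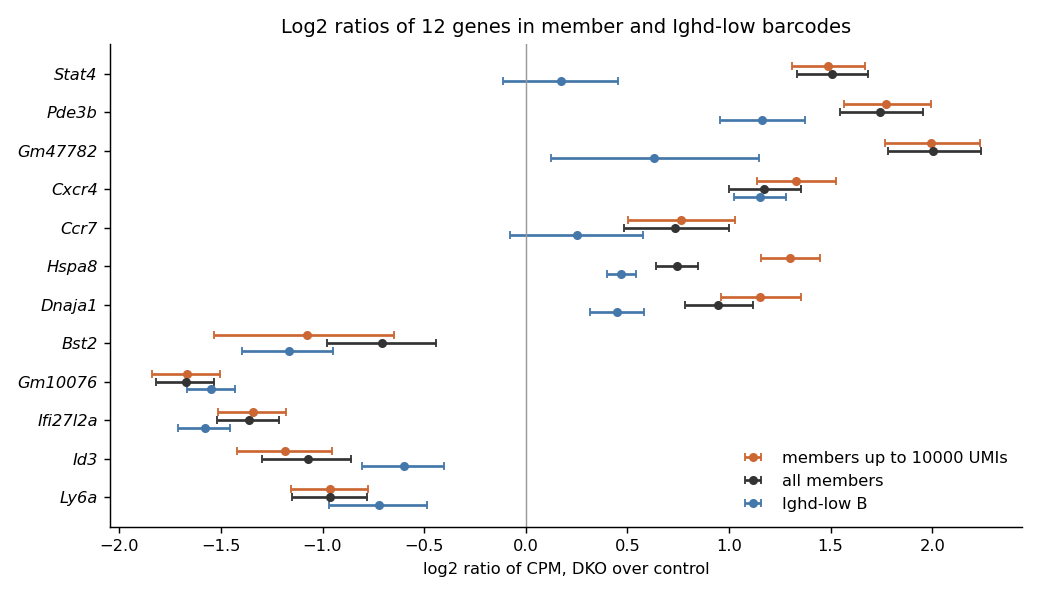
Log2 ratio of CPM, DKO over control (horizontal axis), of 12 genes in Ighd+ B cells of at most 10000 UMIs (orange), in all Ighd+ B cells (black) and in Ighd-low B cells (blue), with 95% counting intervals as bars. Stat4 was at 1.51 in all Ighd+ and 0.18 in Ighd-low B cells, and Cxcr4 at 1.17 and 1.15.

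Heat shock genes depended on the large barcodes. Over all cells 4 of 8 had an interval above 0 and 3 below it, with a median of 0.13, and in cells of at most 10000 UMIs 6 were above 0, none was below it, and the median was 0.51. All genes had 30.6% of intervals above 0 and 17.5% below it over all cells, and 26.6% and 12.4% at that limit. Hspa8, a constitutive Hsp70 chaperone, was at 396 CPM (374 to 419) and 663 CPM (635 to 691) over all cells and at 239 and 588 CPM in those of at most 10000 UMIs. Dnaja1, its cochaperone, was at 148 CPM (134 to 162) and 286 CPM (268 to 304) over all cells, a log2 ratio of 0.95 (0.78 to 1.12). In cells of at most 10000 UMIs the Dnaja1 ratio was 1.15. Immediate early genes had 6 of 17 intervals below 0 and 3 above it, with a median of -0.16. Fos was at 29.99 and 11.5 CPM over all cells and at 20.5 and 12.7 CPM in cells of at most 10000 UMIs, and Ier2 was at 123 and 73.4 CPM (-0.75, -0.99 to -0.51).

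Ribosomal protein genes were lower almost throughout, with 72 of 82 intervals below 0, 2 above it and a median of -0.33 (-0.30 in cells of at most 10000 UMIs). Of all genes, 17.5% had an interval below 0 and 30.6% above it, a background that also serves for the next lists. In Ighd-low B cells the ribosomal median was -0.20, with 66 of 82 intervals below 0 and 9 above it. Over all genes of Ighd-low B cells, 1490 of 6999 intervals lay below 0 and 2065 above it. In pro-B and large pre-B cells the ribosomal median was -0.004, with 34 of 82 intervals below 0 and 30 above it. Over all genes of those cells, 1105 of 6799 intervals lay below 0 and 1464 above it. Rplp0, of the ribosomal stalk, was at 2623 and 1690.2 CPM (-0.63, -0.68 to -0.58), and Fau at 5612 and 4839 CPM (-0.21, -0.25 to -0.18). The snoRNA host genes had 3 of 9 intervals below 0 and none above it, and Gas5 among them was at 399.7 and 297 CPM (-0.43, -0.55 to -0.31). Of 7 p53 targets, 1 had an interval below 0, Bax at 107 and 74.6 CPM, and 3 above it, Trp53inp1 at 47.03 and 79.1 CPM among them. In cells of at most 10000 UMIs, 1 of 7 snoRNA host genes had an interval below 0. Of 6 p53 targets there, 1 was below 0 and 1 above it. Over all genes at that limit 12.4% of intervals lay below 0 and 26.6% above it. Cell cycle genes had 7 of 20 intervals below 0 and 2 above it, Mki67 being higher at 131 and 183 CPM over all cells and 51.5 and 59.3 CPM in cells of at most 10000 UMIs.

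The counts that varied most between cells, after thinning to 1500 UMIs, included those of other cells' transcripts and of the light chain gene Iglc1. The variance over the mean of Hbb-bs, a beta-globin gene, was 23.98 in control and 34.7 in DKO cells. That of the neutrophil protease gene Elane was 18.1 and 10.4 and that of Lyz2 was 16.4 and 4.05, where 1 is the value for counting error alone. Among the B cell genes it was 10.7 and 7.57 for Iglc1 and 4.65 and 3.96 for Igkc.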

How the data were processed

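Bone marrow of 1 control and 1 DKO mouse, 1 library each, was read from the matrices deposited by the authors, which hold raw UMI counts per gene and barcode, unnormalized, from Cell Ranger 7.1.0 per the file headers. The submitters' processing notes name mm10. The control matrix lists 1518290 barcodes, and the DKO matrix 14142 called ones, none under 500 UMIs. The members and the gene lists were chosen with earlier results of these data known.

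Member counts were added up within a library and divided by their total to give CPM, and log2 ratios were taken with 1 count added to each sum. The exact conditional binomial 95% interval of a ratio, the Poisson interval of a level and the Clopper-Pearson interval of a share cover counting error only. No test between genotypes was made, since there was 1 library per genotype. Genes had to reach 20 CPM in a library. Cells were thinned to 1500 UMIs for shares of cells with a UMI, and to 2000 UMIs for the membership rule. Neutrophils were barcodes with at least 5% granule gene UMIs, less than 20% hemoglobin UMIs and no Cd79a or Cd79b.

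Named genes were Ddx41, Cgas, the rule's genes and the markers, the 10 lowest and 10 highest ratios among genes of at least 100 CPM with an interval on 1 side of 0, per list up to 4 genes by level and 4 by ratio, the 10 largest differences in each direction from Ighd-low B cells, and the 10 most variable genes. Other genes in the text were picked with their values in view, as were the same 20 extremes in cells of at most 10000 UMIs. Gene positions came from GENCODE M21 (GRCm38, the same assembly as mm10) and promoter windows from RefSeq (GRCm38.p6). The intervals were tried on counts simulated with counting error alone, which cannot show how they hold for the larger spread between real cells. Doublets were not called and free RNA was not subtracted. Python 3.11.15, numpy 2.4.6, scipy 1.17.1, pandas 2.3.3 and matplotlib 3.10.9 were used. Some genes that the naming rule selects are not reported here.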

Additional observations from a re-analysis of the deposited data

How the results depend on the processing

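No paired analysis was possible because each genotype had 1 library, and for the same reason no replicate was left out. Depth limits genes under about 20 CPM, such as Cgas, whose counting intervals span more than 2-fold. The alternatives changed the membership rule, the scale, the added count or the CPM floor. The limit of 10000 UMIs and the rule on counts thinned to 2000 UMIs were added after the data were seen. The causes of the shifts were not tested.

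The share of Ighd+ B cells was 5.91% (control) and 6.37% (DKO) with at least 1 Ighd UMI, 0.855% and 2.15% with at least 5, 2.92% and 4.37% without cells with at least 2 UMIs of other-cell markers, and 2.80% and 3.24% with the rule on thinned counts. The DKO kappa share was 89.6% with at least 1 Ighd UMI. The Cgas ratio reversed to 0.58 with the rule on thinned counts. Genes at least 2-fold lower and higher in the DKO cells numbered 323 and 389 with at least 5 Ighd UMIs, 65 and 84 with the mean of CPM per cell, 43 and 79 at a floor of 50 CPM, and 460 and 823 with at least 10 UMIs and no floor. Without cells with other-cell markers 62 were lower, and with at most 10000 UMIs 77 were higher. Genes 2-fold higher than in Ighd-low B cells in both libraries numbered 227, and 51 with at least 5 Ighd UMIs, 147 with the mean per cell, 545 without a floor and 88 with the rule on thinned counts. Genes 2-fold lower numbered 284, and 183 with at least 5 Ighd UMIs, 171 at 50 CPM and 590 without a floor.

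The class II median was -0.10 with at least 5 Ighd UMIs. The ribosomal median was -0.46 after centring, -0.27 with the mean per cell, -0.26 with cells thinned to 1500 UMIs and -0.26 with the rule on thinned counts, and the homing median was 0.32 with cells thinned to 1500 UMIs. Among single genes, Irf7 reversed to 0.43 with the rule on thinned counts, and Cd93 and Vpreb3 reversed to -2.01 and -0.21 with at least 5 Ighd UMIs. Pf4 reversed to -1.51 without cells with other-cell markers, -0.39 with the mean per cell, -0.43 with cells thinned to 1500 UMIs, -2.54 with at most 10000 UMIs and -1.81 with the rule on thinned counts. Among the others, 123 single-gene values and 32 summary values moved past the counting interval, or past 1.5 times for counts. The single-gene values among them that moved by over 1.5 times were Iglc1 (-0.78 with at least 1 and -0.82 with at least 5 Ighd UMIs), Bst2 (-1.99), Rag1 (0.99) and Pf4 (6.10) with at least 5, Isg15 (-0.04) and Fos (-0.51) with cells thinned to 1500 UMIs, Lyz2 (-0.39), Fos (-0.56) and Cd93 (1.73) without cells with other-cell markers, Lyz2 (-0.27) with the rule on thinned counts, and Fos at -0.70 with the mean per cell and -0.68 with at most 10000 UMIs. The remaining 519 single-gene and 171 summary values stayed within the counting interval, or within 1.5 times for counts.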
